A study of Mus musculus with 4 samples.

Results

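The platelet and megakaryocyte genes described here were 10 genes chosen by name. They were the granule chemokine genes Ppbp and Pf4, the glycoprotein genes Gp1ba, Gp1bb, Gp5, Gp6 and Gp9, the integrin gene Itga2b, the selectin gene Selp and the lectin receptor gene Clec1b. A gene had a value where the platform annotation gave it a probe set, a group of array probes read as 1 value, that named no other gene. Of the 10 genes, 8 had such a probe set, 1 each, out of 22180 genes on the arrays. No probe set was listed for Gp1ba, and the 1 that listed Gp1bb also listed Septin5, so these 2 genes are not analysed here. A further probe set of Clec1b, shared with Clec9a, was left out for the same reason.

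The cells were bone marrow cells of mice aged 2 months, sorted for c-Kit and Sca-1 and against lineage antigens and CD34, and the labels call them SLAM cells. The genotypes were wild type, called WT, knockout of Fancd2 (Fancd2KO), knockout of Foxo3a (Foxo3aKO) and the knockout of both genes (DKO), each on 1 Affymetrix Mouse Gene ST array. No treatment is labelled, and the strain, alleles, sex, and number of mice or cells behind each array are not given in the sources used here. With 1 array per genotype there is no spread between replicates, so no test is given and every difference describes a pair of arrays.

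Megakaryocytes are the large marrow cells that shed platelets. Their chemokines are stored in alpha granules, and their surface receptors bind von Willebrand factor, fibrinogen and collagen at a damaged vessel wall. Some long-term haematopoietic stem cells are known to carry transcripts of this lineage, and signalling through the thrombopoietin receptor serves both cell types. The comparisons ask how the loss of Fancd2, a protein of DNA crosslink repair, and of the forkhead factor Foxo3a go with these transcripts in the stem cell gate.

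Values are log2 expression values as deposited, so a difference of 1 is 2-fold. A gene entered the counts when its highest value on the 4 arrays reached a floor of 5.51, the median of all gene values, which 12041 genes did. Of the 8 measured members, 6 reached it, and Gp6 and Clec1b did not. As no replicate error could be had, a guide to probe-set agreement came from 728 other genes with 2 probe sets. For 95% of these, both probe sets gave differences from WT within 0.92 (Fancd2KO), 0.94 (Foxo3aKO) and 0.96 log2 (DKO) of each other. The guide does not cover differences between mice or sorts and does not replace replicate error.

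The arrays had similar medians, from 5.27 to 5.34 log2 over 41345 probe sets. Fancd2 stood at 6.56 (WT), 6.08 (Fancd2KO), 6.67 (Foxo3aKO) and 5.84 (DKO), and Foxo3 at 6.62, 6.72, 6.64 and 6.51. The exons under these probe sets are not known here, so these signals do not check the labels. Stem cell markers had values for 8 of 10 genes, at a mean level of 7.97 (WT), 8.09 (Fancd2KO), 7.80 (Foxo3aKO) and 7.85 (DKO), with 0 under the floor. Cd34, the gene of the antigen absent from the gate, stood at 9.67 to 10.79. Flt3 and Cd48 were listed with it, as genes of antigens absent from or low in the gate. Flt3 stood at 8.97 (WT), 7.34 (Fancd2KO), 7.37 (Foxo3aKO) and 6.67 (DKO), and Cd48 at 8.17, 7.50, 8.13 and 8.68. All 10 neutrophil markers were above the floor on every array, with mean levels from 10.83 to 11.55. Background controls with many G and C bases had a median of 6.59 (WT), 6.51 (Fancd2KO), 6.06 (Foxo3aKO) and 6.70 (DKO). The part that these offsets or other cells play in the results below was not tested, and in bulk RNA fewer cells of a type and less RNA per cell cannot be told apart.

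**Figure D1:**
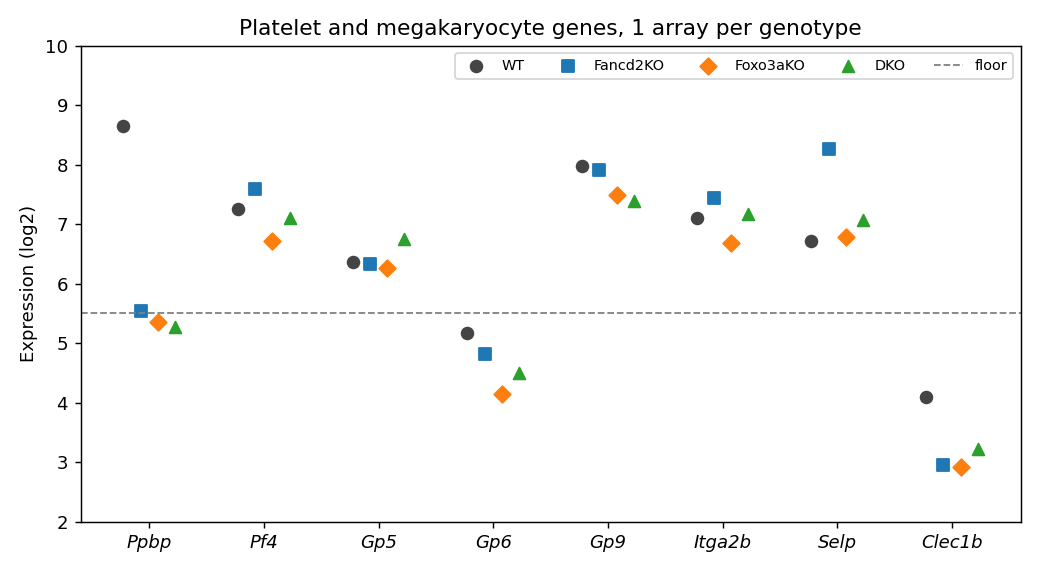
Log2 expression (vertical axis) of the 8 measured platelet and megakaryocyte genes (horizontal axis), with 1 point per array and genotype, and the floor of 5.51 as a dashed line. Ppbp is at 8.66 in WT and at 5.27 to 5.55 on the knockout arrays, while Selp is highest in Fancd2KO at 8.27.

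Ppbp encodes pro-platelet basic protein, the precursor of the neutrophil-attracting chemokine CXCL7. It stood at 8.66 (WT), 5.55 (Fancd2KO), 5.37 (Foxo3aKO) and 5.27 (DKO). WT was high and the 3 knockout arrays were low, close to the floor and within 0.28 of each other. The differences from WT were -3.11, -3.29 and -3.39 log2, or 8.63-fold, 9.79-fold and 10.5-fold lower. All are more than 3 times the guide from probe sets. Because the Foxo3aKO and DKO signals lay under the floor, the sizes are not exact. When signals under the floor were set to it, the differences were -3.11, -3.15 and -3.15. The 3 differences share the WT array and are therefore not 3 independent observations. Without that array, DKO differed from Fancd2KO by -0.28 and from Foxo3aKO by -0.10.

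Pf4 encodes platelet factor 4, a heparin-binding chemokine of the same granules, and is the next protein-coding gene beside Ppbp. It stood at 7.25 (WT), 7.59 (Fancd2KO), 6.72 (Foxo3aKO) and 7.10 (DKO). Fancd2KO was highest and Foxo3aKO lowest, and WT lay between them. The differences from WT, 0.34, -0.53 and -0.15 log2, were all within the guide. The large difference of Ppbp was thus not seen in Pf4.

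The 250 bases before the RefSeq start of each chemokine gene are shown because the 2 neighbours had different values, and those of Selp because it was the other member at least 2-fold from WT among those above the floor. They are given 5′ to 3′ on the strand of the gene, from RefSeq on GRCm38.p6. Ppbp lies at chr5:90768268-90768517 (+), Pf4 at chr5:90772185-90772434 (+) and Selp at chr1:164115014-164115263 (+). Capitals mark matches to TGANTCA, the core of sites for NF-E2 and also for AP-1, or to AGGAAG, a core for ETS factors, on either strand.
Ppbp: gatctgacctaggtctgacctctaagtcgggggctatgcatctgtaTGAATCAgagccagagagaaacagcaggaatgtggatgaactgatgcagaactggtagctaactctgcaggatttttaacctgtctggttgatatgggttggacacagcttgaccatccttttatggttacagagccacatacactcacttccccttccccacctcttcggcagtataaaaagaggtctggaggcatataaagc
Pf4: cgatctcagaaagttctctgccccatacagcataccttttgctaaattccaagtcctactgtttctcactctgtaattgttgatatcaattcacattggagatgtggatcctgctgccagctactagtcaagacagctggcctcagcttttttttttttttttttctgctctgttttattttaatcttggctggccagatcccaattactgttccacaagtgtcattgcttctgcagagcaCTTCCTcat
Selp: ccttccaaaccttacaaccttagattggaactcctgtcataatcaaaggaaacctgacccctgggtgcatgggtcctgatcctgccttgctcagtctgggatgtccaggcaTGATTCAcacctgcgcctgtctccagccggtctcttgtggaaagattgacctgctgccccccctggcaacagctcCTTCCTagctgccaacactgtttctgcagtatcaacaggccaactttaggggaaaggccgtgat

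Ppbp had 1 match to TGANTCA, ending 198 bases before the start, and Selp had 1, ending at 133 bases. Pf4 had 1 match to AGGAAG, ending 4 bases before the start, and Selp had 1, ending at 59 bases. None of the 3 windows held the GATA letters AGATAA or TGATAA or the RUNX letters TGTGGT. Over the windows of all 10 members, 4 held the GATA letters, 6 AGGAAG, 1 TGTGGT and 3 TGANTCA. Over 32851 RefSeq windows of this length, the shares were 16.6%, 29.5%, 14.0% and 6.75%. A match describes letters and does not show a site.

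Gp9, Gp5 and the genes of the glycoprotein Ib chains encode the receptor complex through which platelets first catch von Willebrand factor. Gp9 stood at 7.99 (WT), 7.92 (Fancd2KO), 7.49 (Foxo3aKO) and 7.40 (DKO). Its 2 lower arrays were those labelled as lacking Foxo3a, by -0.50 and -0.59 log2 from WT, within the guide. Gp5 stood at 6.37 (WT), 6.34 (Fancd2KO), 6.26 (Foxo3aKO) and 6.75 (DKO). Its values spanned 0.49, with DKO 0.38 above WT, also within the guide. Gp5 was near the background of probes rich in G and C.

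Itga2b encodes CD41, the alpha chain of the fibrinogen receptor and an early marker of the lineage. It stood at 7.11 (WT), 7.44 (Fancd2KO), 6.68 (Foxo3aKO) and 7.18 (DKO). The arrays took nearly the order of Pf4, with Fancd2KO highest and Foxo3aKO lowest, and the differences from WT of 0.33, -0.42 and 0.07 were within the guide. Itgb3, which encodes the beta chain of the same receptor, stood at 6.88 in WT and differed by 0.65, 0.49 and 0.16.

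Selp encodes P-selectin, an adhesion molecule of alpha granules and of endothelial storage granules that moves to the surface on activation. It stood at 6.72 (WT), 8.27 (Fancd2KO), 6.78 (Foxo3aKO) and 7.07 (DKO). The Fancd2KO array was high, and the other 3 lay within 0.35 of each other. Selp was 1.55 log2 or 2.93-fold higher in Fancd2KO than in WT, beyond the guide, and the 55th highest difference of 12041. In DKO it was 0.35 above WT and -1.20 from Fancd2KO, beyond the guide of 1.01 for that pair. In Foxo3aKO it differed from WT by 0.06, a difference that changed sign, to -0.0042, with each array centred on its median.

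Selp is also an endothelial gene, so endothelial markers are given beside it. Their mean level over 10 genes was 6.15 (WT), 6.32 (Fancd2KO), 6.14 (Foxo3aKO) and 6.34 (DKO). Cdh5, Kdr, Cldn5 and Plvap, defining genes of that cell type, lay under the floor on all 4 arrays. The other 6 reached it, among them Emcn at 8.35, Pecam1 at 8.23, Tie1 at 7.67 and Egfl7 at 7.09 in WT. In Fancd2KO these genes differed from WT by -0.43, -0.18, 0.30 and -0.22. Unlike the mean level, which includes the genes under the floor, the median difference of the 6 was below 0 there, at -0.20. Sele, the endothelial selectin, differed by -0.60 in Fancd2KO. Vwf, which both cell types express, was 1.08 higher in Fancd2KO, at 7.27 against 6.19, and the stem cell gene Slamf1, which encodes CD150, was 1.11 higher, at 8.36 against 7.25. Of 8 stem cell markers with a value, 4 were higher and 4 lower in Fancd2KO, with a median of 0.02.

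Gp6 and Clec1b encode the collagen receptor GPVI and the podoplanin receptor CLEC-2, both activating receptors that signal through the kinase Syk. Gp6 stood at 5.17 (WT), 4.83 (Fancd2KO), 4.15 (Foxo3aKO) and 4.50 (DKO), under the floor on every array. Clec1b stood at 4.10 (WT), 2.95 (Fancd2KO), 2.92 (Foxo3aKO) and 3.22 (DKO), likewise under the floor. WT was the highest array for both, by up to 1.02 in Gp6 and 1.18 in Clec1b. When signals under the floor were set to it, no difference remained, so these values do not bear on expression of either receptor. Fcer1g, the signalling chain that carries GPVI on platelets and is also found in myeloid cells, stood at 10.57 in WT and differed by -0.81, 0.39 and 0.63.

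**Figure D2:**
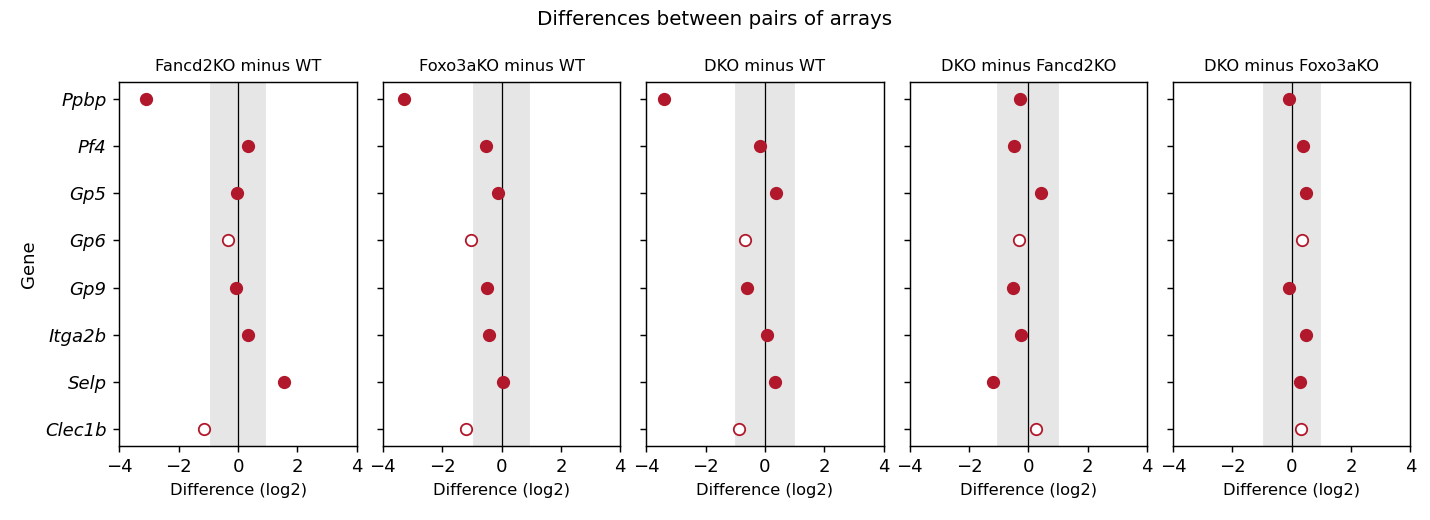
Log2 differences (horizontal axis) of the 8 measured genes (vertical axis) for 5 pairs of arrays. Filled points reached the floor, open points did not, and the grey band is the range within which 95% of genes with 2 probe sets agreed about the same difference. Ppbp lies far outside the band in the 3 comparisons with WT and inside it between knockout arrays, and Selp lies outside it in Fancd2KO minus WT and DKO minus Fancd2KO.

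Among the 6 members above the floor, Selp alone was at least 2-fold higher in Fancd2KO than in WT, against 1.68% of 12041 genes, and Ppbp alone was at least 2-fold lower, against 1.35%. In Foxo3aKO, 0 of 6 members were higher, against 1.81%, and 1, Ppbp, was lower, against 1.3%. In DKO, 0 members were higher, against 1.37%, and 1, again Ppbp, was lower, against 1.72%. Ppbp reached the floor through WT and Fancd2KO alone, so these counts include a gene that its WT level helped to bring in. With both genes under the floor counted too, 2 of 8 members were lower in Fancd2KO, against 1.01% of all 22180 genes, and 3 of 8 in Foxo3aKO, against 0.902%.

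The medians of the 6 members were 0.15 log2 in Fancd2KO, -0.46 in Foxo3aKO and -0.04 in DKO, beside -0.01, -0.04 and -0.03 for all 12041 genes. Foxo3aKO was the lowest array for 5 of the 8 measured members, and 7 of 8 were below WT there. Gp6 and Clec1b, under the floor on every array, are in both counts. Of the 6 above the floor, 5 were below WT. The shares of all genes for these counts are not given here. Apart from Ppbp, Gp6 and Clec1b, the members below WT in Foxo3aKO differed by -0.11 to -0.53. The background rich in G and C was also lowest on that array, and whether it moved these genes was not tested.

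DKO was also set against each single knockout. In DKO minus Fancd2KO, 0 of 6 were at least 2-fold higher, against 1.5% of genes, and Selp alone was lower, against 1.51%. In DKO minus Foxo3aKO, 0 of 6 were at least 2-fold apart, against 1.18% higher and 2.18% lower. In that comparison 4 of the 6 were higher, by up to 0.49 for Gp5 and Itga2b, and the median was 0.34.

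The design also allows the double knockout to be set against the sum of both single differences. For Ppbp the sum would have placed DKO at 2.26 log2, near the lowest signals of the arrays, while it stood at 5.27, a departure of 3.01. Both single knockout arrays were already near the floor, and the expected value lies far under it. For Selp the sum gave 8.33 and DKO stood at 7.07, a departure of -1.26, within the guide of 1.37 for this comparison. Pf4, Gp5, Gp9 and Itga2b departed by -0.03 to 0.53. At least 2-fold departures were found in 1 of 6 members upward, against 3.99% of genes, and in 1 downward, against 4.43%.

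**Figure D3:**
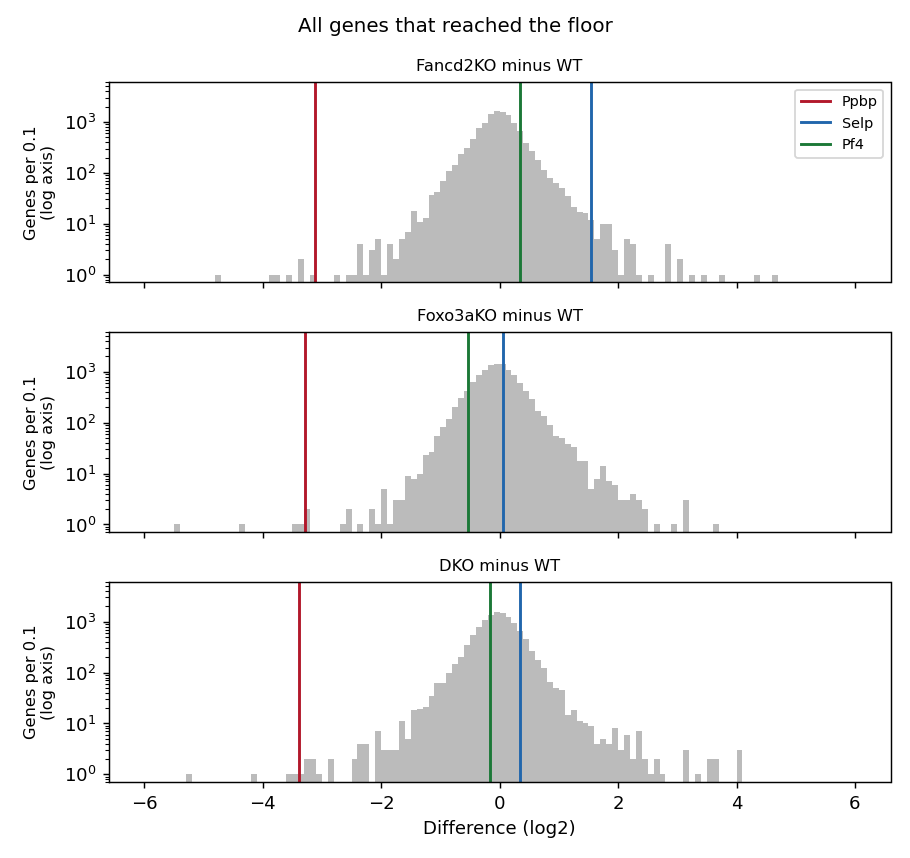
Number of genes per 0.1 log2 (vertical axis, logarithmic) by difference from WT (horizontal axis, log2) for the 12041 genes that reached the floor, with Ppbp, Selp and Pf4 as vertical lines. Ppbp lies in the far lower tail in the 3 panels, Selp in the upper tail in Fancd2KO, and Pf4 in the body of the distribution.

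Against the whole array, Ppbp had the 7th lowest difference of 12041 genes in Fancd2KO and the 5th lowest in both Foxo3aKO and DKO. Its range over the arrays, 3.39 log2, ranked 25th, whereas the median range of all genes was 0.46. In all 38 genes (0.316%) were at least 2-fold lower than WT on all 3 knockout arrays, a group defined by the same differences. Only 5 were at least 8-fold lower on all 3: Ppbp, an olfactory receptor and 3 immunoglobulin kappa variable segments, which belong to families with similar copies. These were singled out after their values were seen. Beside them Ighm, the heavy chain of IgM, differed from WT by -1.35, -2.64 and -1.69, and the B cell gene Cd79a by -0.75, -0.72 and -1.39. Both were also named after their values were seen, and other lymphoid markers did not all go with them. Ebf1, a B cell factor gene, differed by 0.56, 0.27 and -0.57. The 4 lymphoid markers above the floor, Cd79a and Ebf1 among them, had medians of 0.32, 0.13 and -0.29.

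Among genes that could be named, the pattern of Ppbp over the 4 arrays was nearest to that of the eosinophil peroxidase gene Epx, with a Euclidean distance of 1.17 log2 between profiles centred on their own means. Epx differed from WT by -2.71, -1.81 and -3.27. Next were Tdpoz2 at 1.26, a member of a family with similar copies, and the progenitor receptor gene Flt3 at 1.30, with differences of -1.63, -1.60 and -2.30. None of these is a platelet gene. Markers of mast cells, basophils and eosinophils together had mean levels of 8.31 (WT), 7.0 (Fancd2KO), 8.12 (Foxo3aKO) and 6.59 (DKO). In Foxo3aKO these markers did not move together. Of the 7 above the floor, 3 were higher there, the mast cell and basophil genes Mcpt8 (0.85), Prss34 (0.43) and Cpa3 (0.27). The 4 lower were Epx (-1.81), Prg3 (-1.15), Prg2 (-0.79) and the mast cell gene Ms4a2 (-0.42). Prg2 and Prg3, like Epx, are expressed by eosinophils and were below WT on every knockout array. Prg2 differed by -1.47, -0.79 and -1.63, and Prg3 by -2.04, -1.15 and -3.53. In Fancd2KO and DKO all 7 markers were lower. The part of mast cells, basophils and eosinophils in the Ppbp difference was not tested. The pattern of Selp was nearer to its neighbours, namely Sparc at 0.23, the Notch target Hes1 at 0.28 and the lipoprotein receptor gene Vldlr at 0.35. In Fancd2KO these differed from WT by 1.32, 1.81 and 1.08. The genes near Ppbp and Selp were picked by these same values, so like differences follow from that choice. Sparc was above the floor in Fancd2KO alone.

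Further markers of mature platelets and megakaryocytes did not show the drop of Ppbp. Of 10 such genes 9 had a value, and their mean level was 6.71 (WT), 6.80 (Fancd2KO), 6.72 (Foxo3aKO) and 6.85 (DKO). None of the 8 above the floor was 2-fold from WT on any knockout array. Tubb1, the platelet tubulin, was under the floor on every array, at 4.51 in WT and 4.42, 4.06 and 4.49 on the knockout arrays. Mmrn1, which encodes the granule protein multimerin, stood at 8.10 to 8.14 on the 4 arrays.

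Transcription factors of the lineage were 12 listed genes, of which 11 had a value above the floor. None was 2-fold from WT on any array, and their medians were 0.11 in Fancd2KO, -0.44 in Foxo3aKO and -0.12 in DKO. The medians of all genes were -0.01, -0.04 and -0.03. In Foxo3aKO 9 of 11 were lower. For this count and those of erythroid markers below, the share of all genes that were lower is not given here. Gata2, a factor of stem cells and early megakaryocytes, differed there by -0.93, the repressor Gfi1b by -0.76, the GATA cofactor Zfpm1 by -0.67 and Gata1 by -0.50. In DKO the same genes were at 0.03, 0.16, -0.12 and 0.47. Gata1 was dim, at 6.01 in WT and just under the floor in Foxo3aKO. On both arrays it lay under the median of background controls rich in G and C, 6.59 and 6.06. Nfe2, needed for platelet release, differed by -0.62 in Fancd2KO, and Meis1, a homeobox factor that stem cells and megakaryocytes share, by -0.57 in DKO. Several of these factors also serve red cells, and 8 of 8 measured erythroid markers were lower in Foxo3aKO (median -0.60) and in Fancd2KO (median -0.63), against 5 of 8 in DKO (median -0.16).

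Genes of thrombopoietin receptor signalling numbered 8 with a value out of 10, and 0 were 2-fold from WT. Cish, a feedback inhibitor induced by STAT5, differed by 0.77 in Fancd2KO and -0.60 in Foxo3aKO. Stat5b differed by -0.50, -0.68 and -0.41, and the kinase gene Jak2 by -0.47 in DKO.

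Other platelet surface receptors and their signalling proteins numbered 23 above the floor out of 25, again with 0 at 2-fold from WT and medians of 0.03, -0.02 and 0.16. The ATP-gated channel gene P2rx1 was lowest in DKO (-0.93). The junction gene Jam3 was 0.85 higher in Fancd2KO, the collagen-binding integrin gene Itga2 differed there by -0.80, or by -0.07 when signals under the floor were set to it, and Plek, a kinase C substrate of platelets and myeloid cells, was 0.80 higher in Foxo3aKO.

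Granule contents and their packaging were the only one of the 5 lists of platelet formation described here with members 2-fold from WT. In Fancd2KO these were Sparc (1.32) and Vwf (1.08), 2 of 15 genes above the floor, against 1.68% of all genes. Sparc lay under the floor outside Fancd2KO and so reached it through that array alone, and its difference was 0.98, under 2-fold, when signals under the floor were set to it. In Foxo3aKO they were Thbs1, the matrix protein thrombospondin, at 2.36 and the transglutaminase gene F13a1 at 1.17, again 2 of 15, against 1.81%. In DKO Vwf was 1.02 higher, 1 of 15 against 1.37%, and F13a1 differed by -1.21, 1 of 15 against 1.72%. F13a1 is also made by monocytes, whose markers differed by a median of -0.49 in Fancd2KO, 0.36 in Foxo3aKO and 1.27 in DKO. F13a1 itself differed by -0.48 in Fancd2KO. The monocyte markers did not move together in DKO. Of the 7 above the floor, 5 were higher there, up to 1.93 (Csf1r), and 2 lower, Ccr2 (-0.81) and Lyz2 (-0.25). The medians of the granule list were 0.03, 0.16 and -0.03.

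Genes of the megakaryocyte cytoskeleton and of platelet release stayed within 2-fold in all 12 of 13 that reached the floor. The calcium channel gene Trpc6 was 0.56 higher in Foxo3aKO and 0.55 in DKO, the myosin kinase gene Mylk 0.51 higher in Fancd2KO, and Was, the gene of the Wiskott-Aldrich syndrome protein, differed by -0.47 there.

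**Figure D4:**
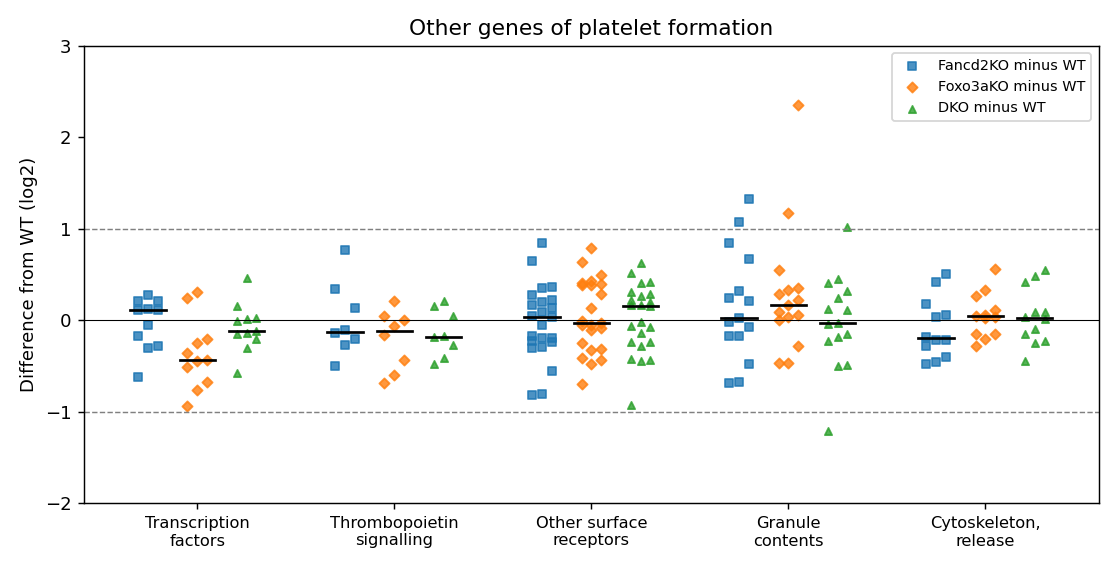
Difference from WT (vertical axis, log2) of the genes above the floor in 5 lists (horizontal axis), with 1 point per gene and array and a black line at each median. Dashed lines mark 2-fold. The points outside 2-fold all belong to granule contents, and the transcription factors have a median of -0.44 in Foxo3aKO.

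Chemokine genes near Ppbp and Pf4 were mostly dim, with 3 of 9 above the floor. Cxcl2 was 1.5 higher in Foxo3aKO, at 9.96 against 8.45 in WT, and Cxcl10, which responds to interferon, differed by -0.81 there, or by -0.55 when signals under the floor were set to it. Cxcl5, the coding gene on the other side of Ppbp, was under the floor on all 4 arrays. Of the lectin receptor genes near Clec1b, 5 of 7 reached the floor. Clec2d, a ligand of a natural killer cell receptor, stood at 10.38 in WT and differed by -1.46 in Fancd2KO, -1.20 in Foxo3aKO and -0.34 in DKO. Clec7a, the receptor for fungal beta-glucan, differed by -0.93, 0.67 and -0.34. Selplg, which encodes the ligand of P-selectin, stood at 10.09 in WT and differed by -0.76, -0.40 and -0.37.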

How the data were processed

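The file analysed holds log2 expression values of 41345 probe sets on 4 arrays, made and deposited by the authors. The scale was read from the range of the values. Affymetrix Expression Console was used, per the submitters' processing notes, and its version and the normalisation and filters applied are not given in the sources used here. That normalisation was kept.

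Gene symbols came from the platform annotation, where 23521 probe sets had 1 gene symbol, 1814 several and 16010 no listed gene. The probe set with the highest mean stood for its gene. Values were subtracted between arrays, and differences of at least 2-fold were counted over the 12041 genes that reached the floor. The additive expectation is Fancd2KO plus Foxo3aKO minus WT. The number of arrays limits the precision, and probe-set agreement does not cover differences between mice or sorts. The named genes were all members, up to 6 genes of each related list (those 2-fold from WT first, then the largest) and the 3 named genes nearest in pattern to members with a range of at least 1 log2. Among genes of like pattern, predicted genes, small RNAs and antigen or chemosensory receptor genes were passed over. Outside this rule, the targeted genes and single markers of the fixed lists are named, and Ighm, Cd79a, the genes 8-fold lower and the chromosomal neighbours were chosen after their values were seen. The members, lists and thresholds were chosen with earlier results of these data known. Alternatives used Python 3.11.15, R 4.3.3 and limma 3.58.1 (quantile, cyclic loess). The counting step was tested on simulated data.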

Additional observations from a re-analysis of the deposited data

Results flagged for a closer look

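In 3 cases the log2 differences for the loss of 1 gene, with the other present or absent, had opposite signs and lay at least 2-fold apart. None was tested because each genotype had 1 array. Signs were also opposite for Gp5 with either loss and for Gp6 with loss of Fancd2. These lay less than 2-fold apart, by 0.53 for Gp5 and 0.70 for Gp6. For Selp, loss of Foxo3a went with 0.06 log2 in animals with Fancd2 and -1.20 without it, a difference of -1.26, within the guide of 1.37. With each array centred on its median the first value was -0.0042, so the signs were no longer opposite. For Clec1b, the loss of either gene went with a lower value alone and a higher one where the other was already lost, a difference of 1.45 in both cases. Clec1b was under the floor on all 4 arrays.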

How the results depend on the processing

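With quantile normalisation, cyclic loess and centring of each array on its median, all 11 differences of at least 2-fold among the 48 member differences stayed 2-fold in the same direction. With dim signals raised to the floor 7 did, and the 4 that ended belong to Gp6 and Clec1b. Each measured member had 1 probe set, so averaging probe sets could not change its value. The counts of members changed in 4 cases. With no floor, members lower in Fancd2KO numbered 2 and in Foxo3aKO 3, and members above the additive expectation 2, in each case by adding the dim genes, against 1.01%, 0.902% and 3.02% of all 22180 genes. At 1.5-fold, 2 members were lower in DKO, the second being Gp9, against 6.3% of 12041 genes. Over all genes, Foxo3aKO had 218 higher and 156 lower, and with each array centred on its median 185 and 211. No paired analysis was possible because each genotype had 1 array, and for the same reason no array could be left out within a genotype. Signals under the floor limit what the values of Gp6, Clec1b and Ppbp on the knockout arrays show.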

Other observations

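Genes beside Selp on the chromosome did not share its value in Fancd2KO. F5, the gene of coagulation factor V and the next coding gene, differed there from WT by -0.69, and Sele by -0.60. Beside Gp9, the coding gene Efcc1 was lower than in WT on the 3 knockout arrays, by -0.80, -0.64 and -0.91, and Gp9 itself by -0.07, -0.50 and -0.59. Hes1, at place 3 from Gp5 by order of coding genes, was 1.81 higher in Fancd2KO, while Gp5 differed by -0.03. These neighbours were picked by gene order and named after their values were seen.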
